A study of Mus musculus with 11 samples.

Results

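The Sox genes examined here were 10 transcription factor genes of the mouse, taken by name from the RefSeq table for mm10, out of 21779 coding genes in that table. The names were chosen for the lineages they stand for, with earlier results of these data known. They were the neural stem cell factors Sox1, Sox2, Sox3, Sox9, Sox11 and Sox21, the glial factor Sox10 with the long genes Sox5 and Sox6, and the endoderm factor Sox17. All 10 names were found in the table, 9 on autosomes and Sox3 on the X. Sites of the chromatin protein Smchd1 near them were counted in the gene span, within 5 kb of it and within 50 kb of it.

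The sites came from chromatin immunoprecipitation and sequencing of neural stem cells that were grown from C57BL/6 embryos at E14.5 and kept for at most 20 passages. Knock-in cells were homozygous for an allele that fuses GFP to Smchd1, wild-type cells carried no tag, and both were pulled down with anti-GFP; whole cell extract was the input. The sonication experiment (30 min of sonication) used female cells only, and each of the knock-in, the wild-type and the input group had 2 libraries. The experiment with micrococcal nuclease (MNase) compared the genotypes in both sexes, with 1 library for each sex and genotype, and its input was 1 library of female cells. The authors deposited 1 pooled list of peak positions for each experiment, 2840 peaks for MNase and 2196 for sonication. No value per library is in these lists, so depth and replicate spread are unknown, a gene without a peak is a gene absent from a list, and no test between groups was possible. Expression was not measured here, so the identity of the cells was not checked against marker genes.

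Sox proteins bind DNA through an HMG box, a domain that bends the helix, and they set or keep cell identity. Sox1, Sox2 and Sox3 form the SoxB1 group, which holds neural progenitors in an undifferentiated state, and Sox21 of the SoxB2 group counteracts them. Smchd1 is an SMC-family protein known for silencing on the inactive X and at some autosomal clusters, among them imprinted genes and Hox genes.

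Of the 10 Sox genes, 3 had an MNase peak within 5 kb: Sox2, Sox5 and Sox17. The share over all coding genes was 5.28%. In the gene span itself 2 of 10 had an MNase peak, Sox5 and Sox17, where 4.13% of coding genes did, and within 50 kb the 3 genes were again Sox2, Sox5 and Sox17, where 11.3% of coding genes had a peak. None of the 10 had a sonication peak at any of these distances, where 2.92% of coding genes had one in the span, 3.38% within 5 kb and 7.84% within 50 kb. A count of 0 of 10 is near that background. The 5 MNase peaks at the 3 genes were 450 to 750 bp wide, with a median of 600 bp, and added up to 2850 bp. They were 0.176% of the peaks in the MNase list, in which the median width was 450 bp and the widest peak 16200 bp.

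**Figure D1:**
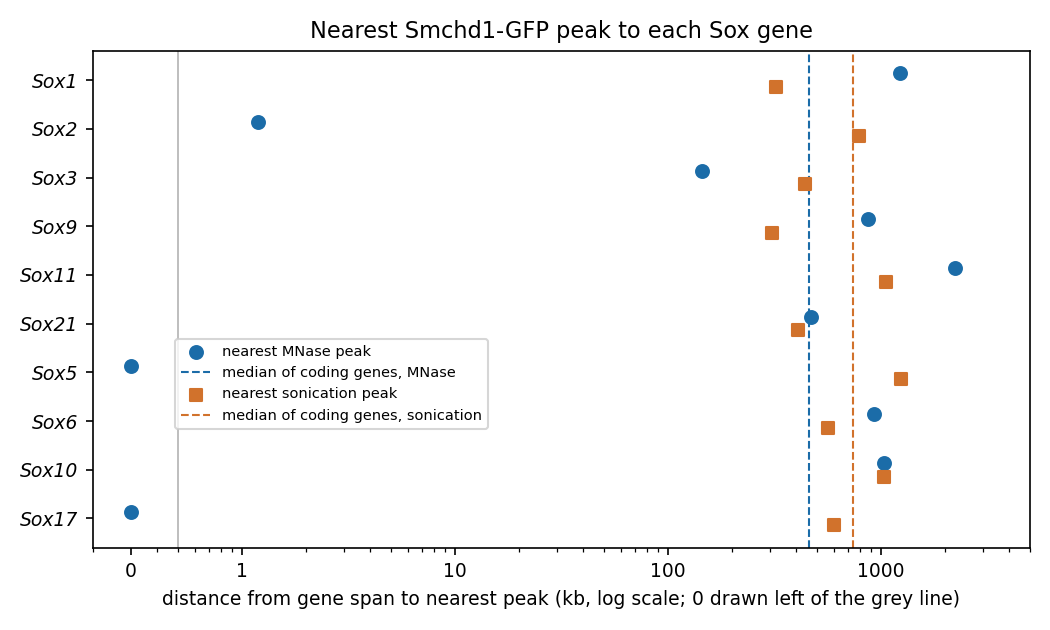
Distance in kb (log axis) from the span of each Sox gene to the nearest MNase peak (circles) and the nearest sonication peak (squares), with the median over coding genes as dashed lines. A peak inside the gene is drawn at 0, left of the grey line. Sox5, Sox17 and Sox2 have an MNase peak in the gene or 1.20 kb away, while every sonication peak is at least 307 kb away.

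The promoter windows given for these genes differed in CpG content. RefSeq promoter windows (GRCm38.p6, the assembly of mm10, 250 bases before to 50 after a start) were given for 6 of the 10 genes: Sox1, Sox2, Sox5, Sox6, Sox11 and Sox21. The windows of 3 genes are printed 5′ to 3′ with each CpG in capitals. Sox2 and Sox5 were the members with a window and an MNase peak, and Sox1 is the SoxB1 relative of Sox2 without one. The windows are chr3:34649745-34650044 on the plus strand for Sox2, chr8:12395269-12395568 on the plus strand for Sox1 and chr6:143947057-143947356 on the minus strand for Sox5. The start in the Sox5 window, 143947106, lies inside the gene, whose upper boundary is 144782287. No window was given at that boundary, so the Sox5 window stands for an internal start only.
Sox2: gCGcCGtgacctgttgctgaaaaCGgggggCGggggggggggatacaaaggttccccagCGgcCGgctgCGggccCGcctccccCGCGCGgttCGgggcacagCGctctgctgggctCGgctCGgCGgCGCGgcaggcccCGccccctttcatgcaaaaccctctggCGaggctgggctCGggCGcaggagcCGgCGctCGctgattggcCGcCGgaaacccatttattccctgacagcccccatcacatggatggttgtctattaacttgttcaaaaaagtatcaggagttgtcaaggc
Sox1: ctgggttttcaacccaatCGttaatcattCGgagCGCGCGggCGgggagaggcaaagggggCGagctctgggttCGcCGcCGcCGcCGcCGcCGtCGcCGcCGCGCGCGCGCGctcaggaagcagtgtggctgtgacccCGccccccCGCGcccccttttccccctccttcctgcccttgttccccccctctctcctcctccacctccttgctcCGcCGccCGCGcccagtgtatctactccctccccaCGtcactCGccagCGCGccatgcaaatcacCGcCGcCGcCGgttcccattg
Sox5: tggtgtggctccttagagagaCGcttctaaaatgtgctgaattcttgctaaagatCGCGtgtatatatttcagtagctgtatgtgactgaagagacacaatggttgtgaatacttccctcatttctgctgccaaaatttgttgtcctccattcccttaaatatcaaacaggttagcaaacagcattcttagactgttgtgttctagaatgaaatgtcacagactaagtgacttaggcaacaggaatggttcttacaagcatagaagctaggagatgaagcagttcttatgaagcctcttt

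The Sox2 window held 27 CpGs and was 66.3% G and C, the Sox1 window held 37 and was 70.7% G and C, and the Sox5 window held 3 and was 39.7% G and C. The windows of Sox11 and Sox21 held 21 and 22 CpGs, and the 6 windows of Sox6 held 2 to 13. Over all 32851 promoter windows the median was 7 CpGs, and over the 282 windows that an MNase peak overlapped it was 20. No MNase peak overlapped any of the 11 windows of these 6 genes, where 0.858% of all windows were overlapped, and no sonication peak did, where the share was 0.0761%. The nearest MNase peak was 945 bp from the Sox2 window, 234 kb from the Sox5 window and 1.23 Mb from the Sox1 window. Windows with more than 20 CpGs were thus found at Sox2, Sox1, Sox11 and Sox21. Of these, only Sox2 had peaks beside it. The nearest MNase peak was 2.25 Mb from the Sox11 window and 472 kb from the Sox21 window.

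Sox2, the pluripotency and neural stem cell factor, had the most peaks of the 10 genes. Its span runs from 34649995 to 34652461 on chromosome 3 on the plus strand, and 3 MNase peaks lay around it. The first, chr3:34646251-34647000, was 750 bp wide, and its near edge was 2995 bp before the Sox2 start. It was the widest of the 5 peaks, and 21.7% of the MNase list was at least as wide. The next, chr3:34648201-34648800, was 600 bp wide and ended 1195 bp before the start, with a gap of 1200 bp between the pair. The last, chr3:34666501-34666950, was 450 bp wide and began 14040 bp beyond the end of Sox2. The peaks thus flanked the coding gene and left its span and its promoter window free.

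All 3 peaks also lay in the span of Sox2ot, a long non-coding RNA gene of 118 kb, from 34560381 to 34677993, which contains Sox2. The lists therefore do not tell a Sox2 site from a Sox2ot site. The nearest other coding gene, Dnajc19, was 565 to 585 kb from these peaks, and no other coding gene was within 500 kb of Sox2. Within those 500 kb the MNase list had no further peak, which gave 2.99 peaks per Mb, compared with 1.19 per Mb over chromosome 3. Within 1 Mb the same 3 peaks gave 1.5 per Mb. No sonication peak was within 500 kb of Sox2. The nearest, of 450 bp, lay 789 kb before the gene, and 4 sonication peaks were within 1 Mb, at 789 to 964 kb.

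**Figure D2:**
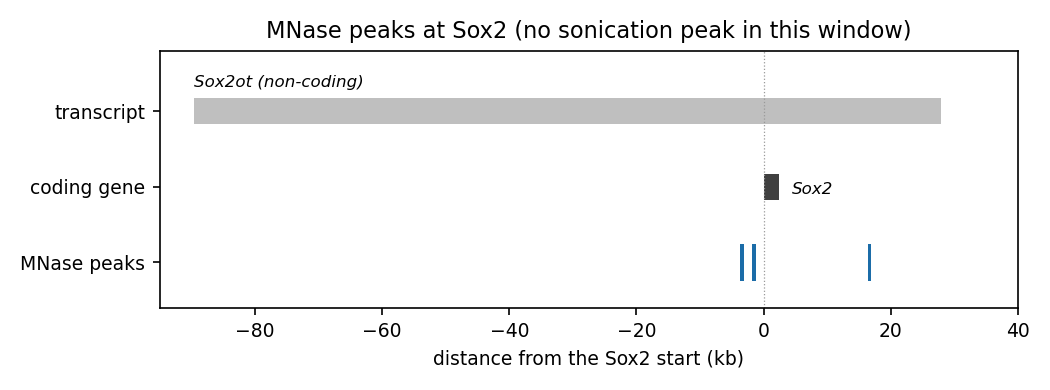
Map of the Sox2 locus, with distance in kb from the Sox2 start on the horizontal axis. The grey bar is the span of Sox2ot, the black bar Sox2 and the blue bars the 3 MNase peaks, of which a pair lies before the start and the other 14040 bp beyond the gene.

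Sox1, the SoxB1 factor that marks the neural plate, had no peak within 50 kb. It spans 12395519 to 12399555 on chromosome 8. Its nearest MNase peak, of 600 bp, lay in Rasa3, 1.22 Mb away, and 21.0% of coding genes were at least that far from an MNase peak. Its nearest sonication peak was 323 kb away and 34.5 kb from Atp11a, which encodes a phospholipid flippase. The non-coding gene Sox1ot, which contains Sox1 as Sox2ot contains Sox2, had no peak within 50 kb in either list. The MNase list thus had 3 peaks over the Sox2 and Sox2ot locus and none over the similarly built Sox1 and Sox1ot locus, without a test of that difference.

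Sox3, the SoxB1 factor of the X, had no peak within 50 kb but lay inside a broad domain of enrichment. It spans 60891366 to 60893430. The domain, 1 of 11 in the authors' domain list and the one of greatest length, covered 39.9 Mb (54945001 to 94875000), with edges 5.95 and 34.0 Mb from Sox3. No other of the 10 genes was in a domain. The domain held 193 sonication peaks, or 4.83 per Mb, against 3.27 per Mb over the X. No label names the libraries behind the domain list. Whether the domain and the peaks were called from the same libraries is therefore unknown.

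Sox3 sat in a long stretch of that domain without sonication peaks. The nearest peaks were 442 kb before it, in the predicted gene Gm7073, and 589 kb after it, both 300 bp wide. The gap between them measured 1.03 Mb, where the median of the 192 gaps in the domain was 119 kb and the longest 1.22 Mb. Only 3 of the 192 gaps were longer. A gene falls in a long gap more often than in a short one, so the median gap is not the gap to expect around a gene. Among the 219 coding genes of the domain, 34 (15.5%) had a sonication peak within 5 kb and 90 (41.1%) within 50 kb, and their median distance to a peak was 73.8 kb. On the whole X, 13.6% of coding genes had a sonication peak within 5 kb and 32.8% within 50 kb. Within 1 Mb of Sox3 the list had 6 sonication peaks, 5 of them before the gene and 1 after it. Their density, 3.00 per Mb, was close to that of the X and below the 4.83 per Mb of the domain, so the wider surroundings of Sox3 were also sparse for the domain.

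An MNase peak of 300 bp, the smallest width in the list, lay 145 kb before Sox3, from 60745801 to 60746100. It was 1 of 10 MNase peaks on the X and 1 of 4 in the domain, and no coding gene was nearer to it than Sox3. Within 5 kb, 0.415% of coding genes on the X had an MNase peak, and within 50 kb 0.935% did. The MNase list held male and female libraries together, and the peak cannot be assigned to either sex, nor any X peak to the active or the inactive X.

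**Figure D3:**
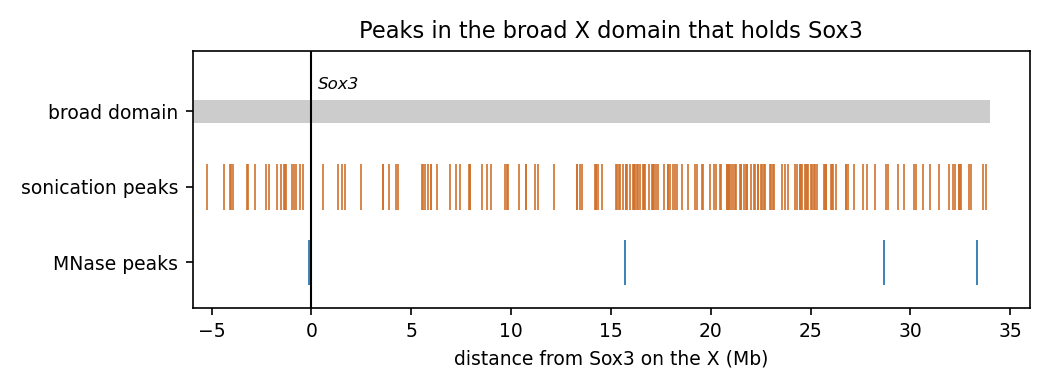
Broad domain of the X that holds Sox3 (grey bar), with the 193 sonication peaks and 4 MNase peaks inside it as vertical ticks, by distance from Sox3 in Mb. Sox3, the black line at 0, stands in a gap of 1.03 Mb between sonication peaks, with an MNase peak 145 kb before it.

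Sox21, Sox9 and Sox11 had no peak within 50 kb in either list. Sox21, the SoxB2 repressor on chromosome 14 from 118233233 to 118237030, had its nearest MNase peak 472 kb away, 1.40 kb from the transporter gene Abcc4. Its nearest sonication peak was 410 kb away, in the glypican gene Gpc6. Both distances were near or under the medians over coding genes, which were 462 kb for MNase and 741 kb for sonication.

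Sox9 drives the step from neuroepithelium to neural stem cells and glia, and is also the master factor of cartilage. It lies on chromosome 11 from 112782210 to 112787757, with 1 other coding gene within 500 kb. A sonication peak of 300 bp, from 112474801 to 112475100, lay 307 kb before it, and Sox9 was the nearest coding gene to that peak. This was the shortest sonication distance of the 10 genes. The nearest MNase peaks were a pair of 600 and 300 bp, 874 and 887 kb before the gene.

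Sox11, a SoxC factor of newborn neurons, was the member farthest from any MNase peak. It lies on chromosome 12 from 27334268 to 27342718, with no other coding gene within 500 kb. The nearest MNase peak was 2.24 Mb away, in Id2, which encodes an inhibitor of bHLH factors, and 8.66% of coding genes were at least that far. The nearest sonication peak was 1.06 Mb away. Neither list had a peak within 1 Mb of Sox11.

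Among the glial and long genes, Sox5 carried a peak and Sox6 and Sox10 did not. Sox5 and Sox6 are SoxD factors that work with Sox9 in cartilage and restrain the maturation of oligodendrocyte precursors. Sox5 spans 954 kb, from 143828425 to 144782287 on chromosome 6. Its peak, chr6:144181051-144181500, was 450 bp wide and lay 353 kb from the lower and 601 kb from the upper boundary. It was also 234 kb from the promoter window of Sox5 in the table, which lies inside the long span. A second MNase peak, of 300 bp, lay 263 kb before the lower boundary, and Sox5 was again the nearest coding gene. With 1 peak in its span, Sox5 had 1.05 MNase peaks per Mb, below the 1.51 per Mb of chromosome 6. No sonication peak was within 1 Mb of Sox5, and the nearest was 1.25 Mb away, 7.16 kb from Abcc9.

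Sox6, 570 kb long, from 115470872 to 116040776 on chromosome 7, held no peak of either list. Its nearest MNase peak was 930 kb away, 2.21 kb from the phosphodiesterase gene Pde3b, and its nearest sonication peak 563 kb away. The antisense or overlapping transcripts Sox5os3, Sox5os4 and Sox6os had no peak within 50 kb. Genes of such length often held a peak: of the 227 coding genes of at least 500 kb, 46.7% had an MNase peak in the span and 44.9% a sonication peak. An MNase peak in 1 of the 2 long Sox genes is close to that background.

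Sox10 drives neural crest, Schwann cell and oligodendrocyte genes. It lies on chromosome 15 from 79154913 to 79164490, in a gene-rich stretch with 32 other coding genes within 500 kb. No peak of either list was within 1 Mb. The nearest MNase and the nearest sonication peak were both 1.03 Mb before it and both at Cacng2, the gene of stargazin, a regulator of AMPA receptors. The sonication peak overlapped Cacng2, from 78119701 to 78120300, and the MNase peak, from 78120451 to 78121050, lay 231 bp from it.

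Sox17, the endoderm and vascular factor, had a peak inside its span. The gene runs from 4490928 to 4497426 on chromosome 1. The MNase peak, chr1:4491001-4491600, was 600 bp wide and began 73 bp inside the lower boundary, with 5.83 kb of the gene above it. Strand was not used for Sox17, so the lower boundary is not to be read as its start. It overlapped no other gene of the table, and the next coding gene, Rp1, was 81.7 kb away. The nearest sonication peak was 602 kb away, in Atp6v1h, a subunit gene of the vacuolar proton pump.

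**Figure D4:**
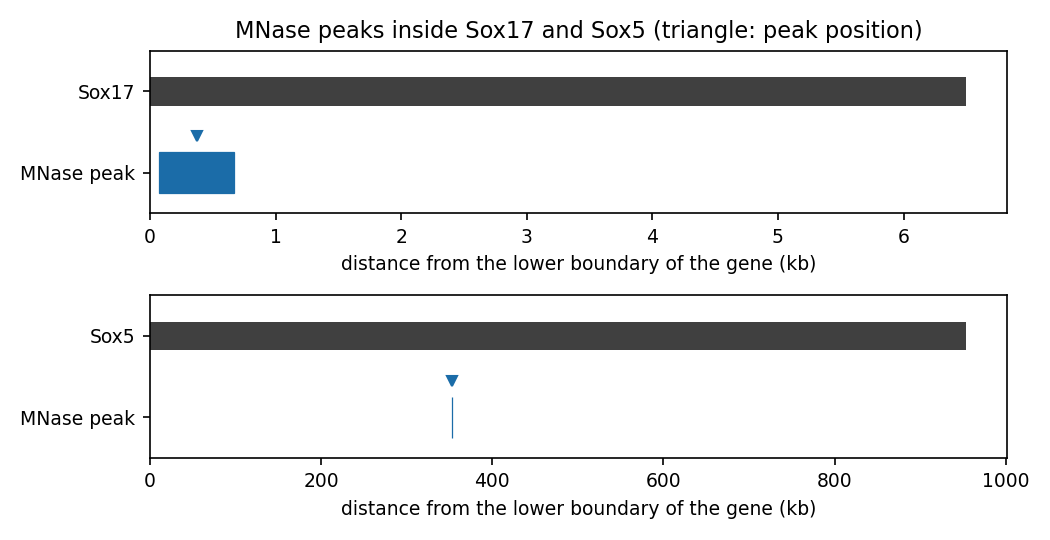
Positions of the MNase peaks inside Sox17 (upper) and Sox5 (lower), by distance in kb from the lower boundary of each gene. The black bar is the gene and the triangle marks the peak. The peak begins 73 bp above the lower boundary of Sox17, which is 6499 bp long. In Sox5, which is 954 kb long, it begins 353 kb above that boundary. The lower boundary is a coordinate and not a gene start, and Sox5 lies on the minus strand.

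Sox17 also had the most MNase peaks in its wider surroundings. Within 1 Mb there were 6, or 2.99 per Mb against 1.20 on chromosome 1. Of these, 2 were at Xkr4, 1 was in Mrpl15, a mitochondrial ribosomal protein gene, and 2 were 56.9 and 68.9 kb from Atp6v1h. The wider peak at Xkr4, of 1050 bp from 3670801 to 3671850, overlapped sonication peaks of 1050 and 900 bp. This was the only overlap between the lists within 1 Mb of any of the 10 genes. None of the 5 MNase peaks within 50 kb of a Sox gene overlapped a sonication peak, and the nearest sonication peak was 608 kb to 1.60 Mb from each.

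Counted over 1 Mb on each side of the 9 autosomal genes, the MNase list had 15 peaks in 19.6 Mb, or 0.767 per Mb, where the autosomes had 1.18 per Mb. The sonication list had 13 peaks there, or 0.665 per Mb, where the autosomes had 0.685 per Mb. No peak of either list was within 1 Mb of Sox10 or Sox11, and Sox1 had no MNase peak and Sox5 no sonication peak in that range. The MNase density was above that of the own chromosome for 3 of 10 genes, Sox2, Sox3 and Sox17, and the sonication density for 4 of 10, Sox1, Sox2, Sox17 and Sox21. Some of these entries rest on 1 peak. They are Sox3 in the MNase list (0.499 against 0.0596 per Mb) and Sox1 in the sonication list (0.499 against 0.467 per Mb). Coding genes were sparser within 1 Mb than on the own chromosome for 8 of the 10 genes. The exceptions were Sox1 and Sox10. The matching shares over all coding genes were not counted, so whether these counts of members are ordinary is unknown. The median distance to the nearest MNase peak was 673 kb for the 10 genes and 462 kb for all coding genes, and to the nearest sonication peak 583 kb and 741 kb. By these medians alone the 10 genes were farther from MNase peaks and nearer to sonication peaks than coding genes in general. For MNase 4 of the 10, and for sonication 6 of the 10, were at or below the coding median. At short range the order was reversed. Within 5 kb of an MNase peak were 30.0% of the 10 genes and 5.28% of coding genes. Within 200 kb of a sonication peak were 0% and 20.2%. None of these differences was tested.

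Most of these genes are short, so they were also set beside coding genes of like length. Of the 8 Sox genes up to 10 kb long, 2 had an MNase peak within 5 kb, Sox2 and Sox17, where 3.13% of the 7861 coding genes of that length did. For sonication the count was 0 of 8, where 0.878% of these coding genes had a peak.

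The other 10 genes of the family were counted in the same way. None of Sox4, Sox7, Sox8, Sox12, Sox13, Sox14, Sox15, Sox18, Sox30 and Sry had an MNase or a sonication peak within 50 kb, where 11.3% and 7.84% of coding genes did, so 0 of 10 is near the background. Their median distance to the nearest MNase peak was 636 kb and to the nearest sonication peak 1.74 Mb. Over all 20 Sox family genes, 3 thus had an MNase peak within 5 kb and 0 a sonication peak, beside 5.28% and 3.38% of coding genes.

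Genes that work with Sox factors or are driven by them were counted beside the same shares of coding genes within 5 kb, 5.28% for MNase and 3.38% for sonication. Of 11 neural stem cell partners and targets, 1 had an MNase peak within 5 kb and 1 a sonication peak, a share of 9.09% in each list and in both cases Nfia, the nuclear factor that acts with Sox9 in gliogenesis. Nfia, from 97578066 to 98118876 on chromosome 4, had 2 MNase peaks of 1350 bp in sum and 1 sonication peak of 450 bp. It is longer than 500 kb. Of the 227 coding genes of at least 500 kb, 46.7% had an MNase peak in the span and 44.9% a sonication peak. A peak of each list at Nfia is therefore common for its length. Nes, Fabp7, Hes5, Pou3f2, Pax6, Notch1, Gfap, Olig2, Dcx and Tubb3 had none within 5 kb, and Pou3f2 had an MNase peak at 7.74 kb. Of 5 targets of Sox10, none had an MNase peak within 5 kb and 1 had a sonication peak, a share of 20.0%. This was Mitf, the melanocyte master factor, with a peak of 300 bp in its span. Mitf runs from 97807002 to 98021360 on chromosome 6, and coding genes of like length were not counted apart. The 4 cartilage targets, Col2a1, Acan, Matn1 and Col11a2, had none within 5 kb in either list. Within 50 kb, 2 of the 4 had an MNase peak, Col2a1 at 12.1 kb and Col11a2 at 46.2 kb, where 11.3% of coding genes did. Of 4 endoderm genes linked to Sox17, 3 had an MNase peak within 5 kb and none a sonication peak. Foxa1, a pioneer factor of endoderm, had 6 peaks of up to 1200 bp, Gata4 had 7 of up to 1500 bp, and Gata6 had 2 of up to 450 bp. Foxa2 had none within 5 kb and an MNase peak at 9.23 kb. Each of these counts rests on at most 3 genes, and no difference between the gene lists was tested. The MNase peaks within 5 kb were more numerous and summed to more bases at Foxa1 (5100 bp) and Gata4 (7350 bp) than at Sox17 (600 bp) or Sox2 (1350 bp). The other endoderm genes did not share this. Gata6 had 2 peaks of 750 bp in sum, fewer bases than Sox2, and Foxa2 had none. The gene spans differ in length, and the sums were not adjusted for it.

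Other developmental factor families had MNase peaks within 5 kb at 5 of 9 Pax genes, 3 of 6 Gata genes and 11 of 44 forkhead genes, compared with 3 of 10 here. The share over all coding genes was 5.28%. These families overlap the lists above: Foxa1, Foxa2, Gata4 and Gata6 were also counted as endoderm genes, and Pax6 among the neural stem cell partners. None of these families had a sonication peak within 5 kb, where 3.38% of coding genes did, so these counts of 0 are near the background. The differences between families were not tested, and with 10 genes or fewer in most of them a change of 1 gene moves the share by 10 percentage points or more.

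**Figure D5:**
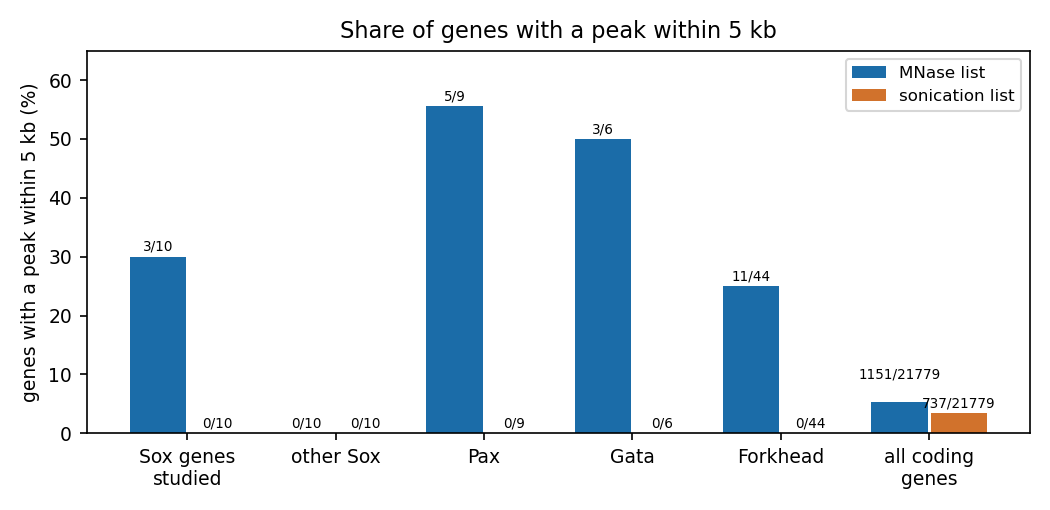
Share of genes, in percent, with an MNase peak (blue) or a sonication peak (orange) within 5 kb, for the 10 Sox genes, 10 other Sox genes, the Pax, Gata and forkhead families and all coding genes, with counts above the bars. The MNase share was 30.0% for the 10 Sox genes, 0 for the other Sox genes and 5.28% for all coding genes.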

How the data were processed

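Per the labels, 11 libraries were made, and each label names the peak list of its experiment; per the submitters' processing notes, bcl2fastq, Bowtie 0.12.9, MACS2 and the build mm10 are listed, with no role given. Per the file headers the lists hold positions only: every start lies on a grid of 150 bp, the smallest width is 300 bp, and the value column is empty. How controls entered the peak calls, and the calling threshold, are not given in the sources used here. The deposited domain list has an authors' score per domain, on a scale not stated, which was not used. The planned test of knock-in against wild-type could not be run on positions.

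Spans came from a RefSeq table of GRCm38.p6 without exons; 340 records in the first 3 Mb of chromosomes, an assembly gap, were left out and 49603 used. Distance is the difference between facing coordinates, 0 for an overlap of at least 1 bp. Counts per Mb use chromosome length beyond 3 Mb. Python 3.11.15, pandas 2.3.3 and numpy 2.4.6 were used, and the distance calculation was tested on simulated data.

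The members and gene lists were chosen with earlier results of these data known; the Pax, Gata and forkhead families and the promoters to print were chosen after the data were seen. The rule named all 10 genes, other Sox genes or transcripts with a peak within 50 kb, and partner or target genes with a peak within 5 kb, at most 8 by summed width; members of these lists without a peak were named as well, to account for them, and genes of the Pax, Gata and forkhead families were otherwise only counted; genes at the nearest peaks were named after their values were seen. Other windows, wider peaks, merged peaks and gene starts were tried as alternatives. Some genes of the lists are not reported here.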

Additional observations from a re-analysis of the deposited data

How the results depend on the processing

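The count of 3 Sox genes with an MNase peak within 5 kb was the same within 10 kb, within 50 kb, with peaks wider than 300 bp only, and after peaks up to 1 kb apart were joined. In the gene span alone it was 2, without Sox2. Counted within 5 kb of a gene start, it was 1 (Sox2), because only 6 of the 10 genes had a start in the promoter table and the peak in Sox5 lies far from the start given. Sox17 had no start there. Its peak lies by the lower boundary and 5.83 kb from the upper, so with a start its count would depend on the strand. For wider peaks, merged peaks and gene starts the matching shares over all coding genes were not counted. The counts of members under these settings therefore have no background beside them. The sonication count was 0 under all 6 alternatives. The 5 MNase peaks within 50 kb stayed 5 when merged or limited to wider peaks, and 0 of them overlapped, or came within 1 kb of, a sonication peak. Sox3 with 50 kb on each side was wholly inside its domain. No paired analysis was possible because the lists pool the libraries and hold no value per replicate, and for the same reason no library could be left out. Depth is unknown, so a gene absent from a list may have a signal under the authors' threshold.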
